A study of Rattus norvegicus with 75 samples.

Results

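The RT1 genes are the rat's major histocompatibility complex genes. Every row of the deposited table whose gene name starts with RT1- was taken as a member, which gave 44 of 32754 genes, with 41 distinct names. By name, 32 members belonged to class I and 12 to class II. The names RT1-CE16, RT1-DMa and RT1-DMb each stood on 2 rows with different gene identifiers, and 7 members are pseudogenes by name.

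Class I molecules display peptides from inside a cell to cytotoxic T cells, and nearly all nucleated cells make them. Each consists of a heavy chain, encoded by a class I gene, with the invariant light chain beta-2-microglobulin. Class II molecules pair an alpha with a beta chain, present peptides taken up from outside to helper T cells, and are made mainly by antigen-presenting leukocytes such as macrophages, dendritic cells and B cells. The rat class I region is polymorphic, and haplotypes differ in which class I genes they carry as well as in their sequence, so reads of one haplotype need not map evenly to the gene copies of another. Class I promoters carry an enhancer A element of the kappa-B type and an interferon-stimulated response element, while both classes share a conserved block that includes an inverted CCAAT box.

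Messenger RNA was sequenced in 75 libraries from kidney tubule segments that had been dissected out of male Sprague-Dawley rats; the labels name no genetic difference between groups. Of these, 53 libraries came from the cortical collecting duct (CCD), where vasopressin sets water reabsorption through aquaporins, and 22 from the cortical thick ascending limb (cTAL), which reabsorbs salt; the protocol text itself names the collecting duct only. Treated rats ate food with 40 mM lithium chloride per kg and control rats ate the food without lithium. For the CCD, 12 h of feeding gave 3 control and 2 lithium libraries, 24 h and 36 h gave 3 of each, and 72 h gave 17 control and 19 lithium libraries; the cTAL, sampled at 72 h, gave 12 control and 10 lithium libraries. The series addresses how lithium starts nephrogenic diabetes insipidus, the loss of the duct's response to vasopressin. The labels do not tie libraries to rats, so the p-values below measure the spread between libraries, which may come from the same animal.

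Values are TPM, transcript abundances divided by gene length and scaled to the same total in every library, so levels can be compared between genes; TPM keeps no read depth. Between 10888 and 12411 genes reached 1 TPM in each library. The segments held their own markers: at 72 h the water channel gene Aqp2 ran from 3434 to 7328 TPM in control CCD and from 2.11 to 9.07 TPM in control cTAL, and the cTAL gene Umod, which encodes uromodulin, ran from 45250 to 79240 TPM in control cTAL and from 25.1 to 141.6 TPM in control CCD. Summed leukocyte markers (14 of the 15 listed names were in the table) had medians of 126.9 TPM in control CCD, 93.1 TPM in lithium CCD, 1576 TPM in control cTAL and 1371 TPM in lithium cTAL at 72 h. Among B-cell markers, Ms4a1 was at 0 in every CCD library of 72 h, while Cd79a ran from 2.30 to 12.1 TPM in control CCD, from 3.10 to 11.2 TPM in lithium CCD and up to 0.20 TPM in cTAL, higher in control CCD than in control cTAL (log2 difference 2.40) and under lithium at 24 h (1.23), and with a difference of 0.32 at 72 h in CCD (limma adjusted p = 0.1025).

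Promoter sequences of both classes were searched for the letters of 3 motifs. Of the 41 RT1 names, 30 had an entry among the RefSeq promoters of assembly GRCr8 (21 class I, 9 class II), which is another assembly than that of the expression values. The 250 bases before the start were searched on both strands, and the matches named here do not overlap. The first motif was enhancer A (its letters are the first run of capitals in RT1-A2 and RT1-CE10 below). The second was TTTCACTTC (the core of the interferon-stimulated response element). The third was ATTGG, the inverted CCAAT box, and a match on the other strand reads CCAAT, the box in its direct orientation. Enhancer A letters stood in 5 of 21 class I and 0 of 9 class II promoters, against 0.0598% of 33469 promoters. The response element core stood in 7 of 21 class I and 0 of 9 class II promoters, against 0.382% of all. The CCAAT box letters, in either orientation, stood in 14 of 21 class I and 9 of 9 class II promoters, against 34.0% of all. In RT1-CE4, RT1-CE16, RT1-N2 and RT1-S3 they stood in the direct orientation only. The promoters of RT1-A1, RT1-A2, RT1-CE10 and RT1-CE16 held all 3 motifs when either orientation was counted, as did 0.0239% of all promoters. A match describes letters only and is not evidence of binding. The 200 bases before the start are shown for 5 members on which the results below turn, on the gene's strand, with each match in capitals. RT1-A2 (chr20:4872671-4872870, plus strand) and RT1-CE10 (chr20:3384980-3385179, minus strand) are class I genes with the 3 motifs in the same order; RT1-M3-1 (chr20:1333367-1333566, minus strand) is a class I gene with the CCAAT letters alone; RT1-Da (chr20:4515215-4515414, plus strand) and RT1-Ba (chr20:4576857-4577056, plus strand) encode class II alpha chains.
RT1-A2: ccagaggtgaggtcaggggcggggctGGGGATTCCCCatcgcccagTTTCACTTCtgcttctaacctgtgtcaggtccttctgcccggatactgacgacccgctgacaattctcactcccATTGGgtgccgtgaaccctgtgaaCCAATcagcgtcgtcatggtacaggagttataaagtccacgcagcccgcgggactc
RT1-CE10: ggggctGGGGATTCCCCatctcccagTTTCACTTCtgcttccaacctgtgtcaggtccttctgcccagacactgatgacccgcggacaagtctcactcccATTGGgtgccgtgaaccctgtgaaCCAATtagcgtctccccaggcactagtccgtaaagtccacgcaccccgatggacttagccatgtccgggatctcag
RT1-M3-1: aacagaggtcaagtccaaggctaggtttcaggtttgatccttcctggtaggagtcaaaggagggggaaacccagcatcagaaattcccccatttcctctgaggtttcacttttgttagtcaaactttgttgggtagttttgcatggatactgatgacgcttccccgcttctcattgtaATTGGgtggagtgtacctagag
RT1-Da: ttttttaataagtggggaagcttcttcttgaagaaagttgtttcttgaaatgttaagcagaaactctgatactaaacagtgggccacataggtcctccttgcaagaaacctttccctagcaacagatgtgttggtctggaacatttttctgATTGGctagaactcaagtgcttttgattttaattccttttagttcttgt
RT1-Ba: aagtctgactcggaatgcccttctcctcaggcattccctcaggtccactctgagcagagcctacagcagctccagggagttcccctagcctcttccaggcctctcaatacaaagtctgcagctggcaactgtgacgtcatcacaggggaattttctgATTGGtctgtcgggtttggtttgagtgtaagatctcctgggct

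Class I made up most of the RT1 RNA in the CCD and class II in the cTAL: at 72 h the mean class I and class II sums were 529.2 and 45.0 TPM in control CCD, 1083 and 100.6 TPM in lithium CCD, 505.6 and 694.3 TPM in control cTAL, and 528.1 and 846.1 TPM in lithium cTAL. In all, 22 class I and 7 class II members reached 1 TPM in some library, and 13 class I but 0 class II members did so in all 75. The mean over the 75 libraries was at least 20 TPM for 9 class I and 4 class II members. The highest class I means were 190.0 TPM for RT1-CE16 (ENSRNOG00000047706), a gene of the nonclassical C/E region, 135.0 TPM for RT1-A2 and 91.1 TPM for RT1-A1, both of the classical A region. The highest class II mean was 115.0 TPM for RT1-Da, the alpha chain of the D molecule, with its highest values in cTAL libraries. The other 15 members never reached 1 TPM (10 class I, 5 class II), and 7 of them were at 0 in every library, among them all 4 rows of RT1-DMa and RT1-DMb, whose products load peptides onto class II molecules. Both of these names stood on more than 1 row, and whether their values of 0 reflect absent RNA was not tested. Close class I copies share reads that the authors' estimator divides between rows, so single class I values are uncertain in that respect, and sums over a class do not depend on that division.

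Within a treatment group, many class I members did not vary smoothly from library to library but in steps between runs of libraries. RT1-CE16 (ENSRNOG00000047706) stood at 6.25 to 10.1 TPM in control CCD libraries 1 to 4 of 72 h and at 159 to 210 TPM in libraries 5 to 17. Under lithium it was at 349 to 514 TPM in CCD libraries 1 to 11, and at 218 to 285 TPM in CCD libraries 12 to 19. The 2 levels of a group did not overlap. RT1-N2, a nonclassical class I gene, was at 0 to 0.11 TPM in lithium CCD libraries 1 to 11, at 0.34 to 3.08 TPM in libraries 12 to 15 and at 14.0 to 16.5 TPM in libraries 16 to 19.

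Runs of libraries were defined without any RT1 gene. The rule written first used genes with 2 clearly separate states. It placed all 17 control CCD libraries in 1 set and the 19 lithium CCD libraries in 5 sets, and all 200 of its genes were listed at 0 in some library. A moderated F test in limma for sets within the CCD groups then called 2 of 23 RT1 members tested, RT1-T24-1 and RT1-N2 (adjusted p of 7.96e-05 and 0.00106 after Benjamini-Hochberg adjustment over all genes), against 2.10% of all genes. A second rule, chosen after the data had been seen, took 211 genes that lie outside chromosome 20 and differ strongly among libraries of 72 h but little within the early groups, and divided each group of 72 h into 4 sets. In CCD these sets were libraries 1 to 4, 5 to 8, 9 to 12 and 13 to 17 of the controls and libraries 1 to 6, 7 to 11, 12 to 15 and 16 to 19 of lithium. Library numbers had not been used, and each set was an unbroken run. The rule asked for a spread ratio of 3 between the libraries of 72 h and the early groups. At a ratio of 2 the control CCD sets were the same. In lithium CCD 148 of 171 library pairs were then grouped alike, and library 15 joined libraries 7 and 8, which broke the runs. All counts on sets below use this second rule.

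With these sets, 17 of 23 RT1 members differed between sets within CCD groups (limma F test, adjusted p under 0.05), against 32.2% of all genes. All 17 were class I (17 of 19), and 0 of 4 class II members passed. The sets held a median of 84.7% of the class I members' spread within groups, 29.6% for class II and 31.9% for all genes tested. In controls alone 14 of 16 members passed against 21.1% of all genes, and in lithium libraries alone 13 of 20 passed against 20.4%, of which 12 were class I and 1 class II. The steps were thus present within each treatment. At the spread ratio of 2, 17 of 19 class I and 2 of 4 class II members passed over both treatments, against 5797 of 11644 genes. The absence of class II calls therefore depended on the ratio.

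**Figure D1:**
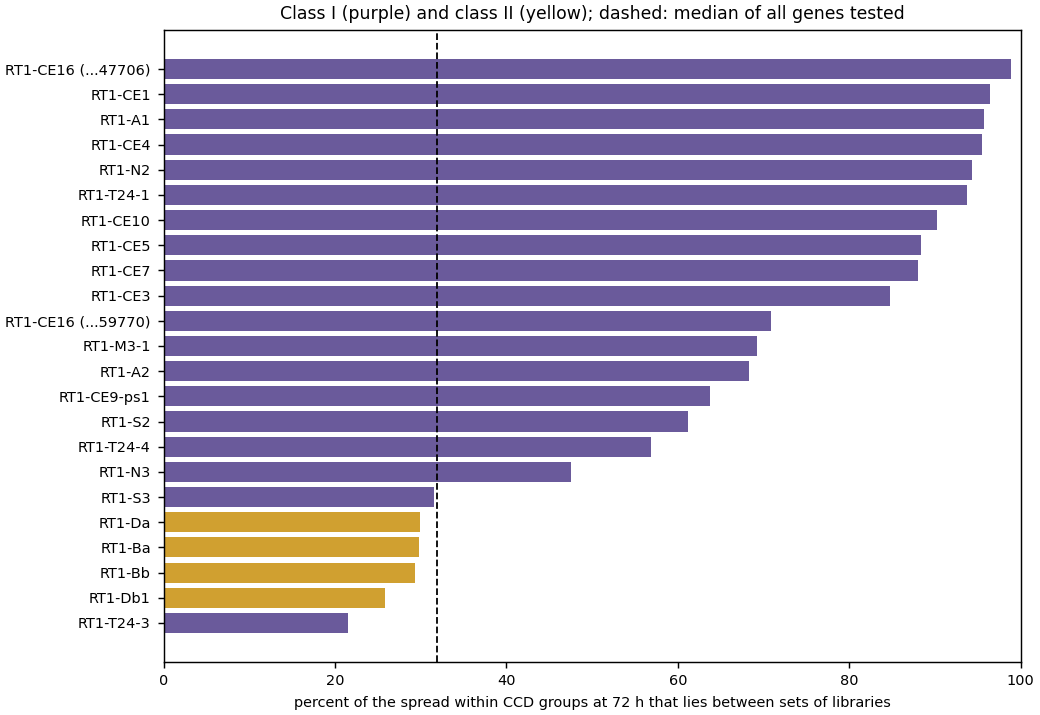
Percent of the spread within CCD groups at 72 h that lies between the 4 sets of libraries, for each RT1 member tested, with the median of all genes tested (31.9%) as a dashed line. RT1-CE16 (ENSRNOG00000047706) is at the top with 98.8%, and the 4 class II members lie between 25.8% and 29.9%.

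The 6 called members with the widest steps did not all step at the same sets. RT1-A1 had control set means of 23.1, 61.3, 72.1 and 80.5 TPM and lithium set means of 181, 218, 126 and 129 TPM, low in the first control set and higher in the first and second than in the later lithium sets, as was RT1-CE16 (ENSRNOG00000047706). RT1-CE7, another C/E region gene, rose from 8.67 TPM in the first control set to at most 34.9 TPM in the others and ranged from 58.7 to 91.0 TPM over the lithium sets. For these genes the lowest lithium set lay above the highest control set.

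The other genes stepped across the treatments. RT1-CE1 of the C/E region had control set means of 21.8, 3.54, 25.9 and 4.17 TPM and lithium set means of 4.15, 2.83, 21.4 and 8.59 TPM. RT1-N2 had control set means of 11.3, 6.68, 0.79 and 10.9 TPM and lithium set means of 0.0050, 0.022, 1.41 and 15.2 TPM. RT1-T24-1, a nonclassical class I gene, had control set means of 5.27, 9.11, 2.43 and 8.63 TPM and lithium set means of 1.79, 1.90, 6.44 and 31.5 TPM. RT1-CE1 and RT1-N2 had sets of both treatments at high and at low levels, while the highest level of RT1-T24-1 was that of 1 lithium set, as the plot of 6 class I members by library shows.

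**Figure D2:**
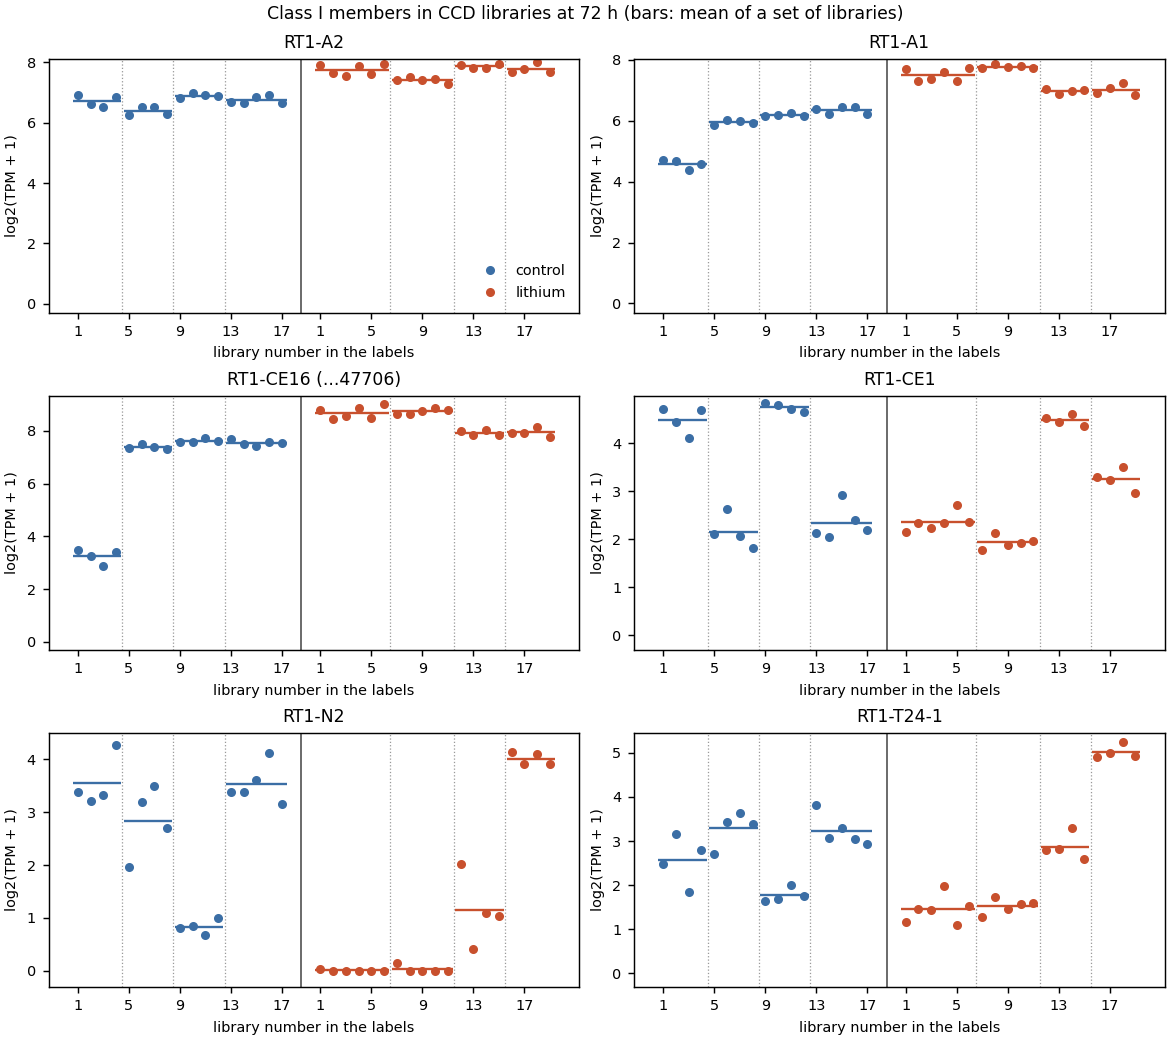
log2(TPM + 1) of 6 class I members in CCD libraries of 72 h, in the order of their label numbers, with control libraries on the left, lithium libraries on the right, dotted lines between sets and a bar at each set's mean. RT1-A2 shifts with treatment by more than between sets, RT1-CE16 (ENSRNOG00000047706) drops in control libraries 1 to 4, and RT1-T24-1 is highest in lithium libraries 16 to 19, and RT1-N2 is near 0 in lithium libraries 1 to 11.

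In part the steps recurred in the other segment. RT1-N2 was at 0 to 0.19 TPM in cTAL lithium libraries 1 to 5 and at 3.09 to 14.6 TPM in cTAL lithium libraries 6 to 10, and RT1-CE16 (ENSRNOG00000047706) was at 11.5 TPM in cTAL control library 1 and at 67.9 to 135 TPM in the other 11. RT1-CE1 showed no such pair of levels in control cTAL, where it ranged from 2.18 to 8.73 TPM. Whether libraries of the CCD and the cTAL came from the same rats was not tested, and cTAL libraries were assigned to sets by their likeness to the CCD sets over the 211 genes. Some matches were weak. Control cTAL libraries 1 and 5 formed set 1, which is not an unbroken run, at Pearson's r of 0.207 and 0.257. Library 5 had an r of 0.182 with set 2. RT1-CE16 (ENSRNOG00000047706) was at 81.2 TPM in library 5, so its low level in control cTAL rests on library 1 alone.

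In CCD at 72 h, most class I members rose with lithium. Summed class I TPM ran from 294.5 to 682.5 with a median of 572.8 in the 17 control libraries and from 906.1 to 1333 with a median of 1045 in the 19 lithium libraries. The ranges did not overlap, and the ratio of the mean sums was 2.05. Of the 23 members tested by limma on log2(TPM + 1) with Benjamini-Hochberg adjustment over 11644 genes, 17 were higher and 1 was lower at an adjusted p under 0.05, where 22.0% of all genes were higher, 15.2% lower and 37.3% either. Class I gave 14 higher and 1 lower of 19 with a median log2 difference of 0.77, class II gave 3 higher of 4 with a median of 1.196, and the median of all genes was -0.00. The groups did not overlap for 6 members, which were RT1-A1, RT1-A2, RT1-CE7, RT1-CE10 and both RT1-CE16 rows, against 1.71% of all genes.

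The number of independent units is smaller if libraries of a set share an animal, so the comparison was also made on the means of the 4 control and 4 lithium sets. There 11 members were higher and 0 lower (limma, adjusted p under 0.05), against 10.8% of all genes higher, 4.29% lower and 15.1% in either direction. They were 9 class I members (RT1-A1, RT1-A2, RT1-CE3, RT1-CE7, RT1-CE9-ps1, RT1-CE10, RT1-CE16 (ENSRNOG00000059770), RT1-N3 and RT1-S3) and the class II pair RT1-Ba and RT1-Bb.

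RT1-A2, a classical class I heavy chain gene, gave the clearest treatment difference. It ran from 74.7 to 124.7 TPM with a median of 103.0 in control libraries and from 154.3 to 259.1 TPM with a median of 205.5 in lithium libraries. Every lithium library lay above every control library, and the control set means (83.0 to 118.0 TPM) were closer to each other than to the lithium set means (169.2 to 233.0 TPM). The log2 difference was 1.00 (SE 0.07, limma adjusted p = 1.345e-14; on set means 1.02, SE 0.13, adjusted p = 0.000452). A two-sided permutation test on libraries gave p = 1e-05, the smallest that 100000 resamples can give, and the exact permutation test on 4 against 4 set means gave p = 0.0286, the smallest that it can give.

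RT1-CE10, whose promoter carries the same 3 motifs, ran from 5.60 to 19.0 TPM with a median of 15.2 in controls and from 23.9 to 59.1 TPM with a median of 37.1 under lithium. The groups did not overlap although RT1-CE10 also stepped between sets, with control set means of 6.56 to 17.4 TPM and lithium set means of 26.5 to 45.7 TPM. The log2 difference was 1.39 (SE 0.14, limma adjusted p = 2.104e-10; on set means 1.36, SE 0.28, adjusted p = 0.00757). The exact permutation p on set means was again 0.0286.

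RT1-A1 went from 19.7 to 86.2 TPM in controls (median 70.3) to 113.5 to 230.1 TPM under lithium (median 158.1), a log2 difference of 1.56 (SE 0.17, limma adjusted p = 1.296e-09; on set means adjusted p = 0.0119). RT1-CE7 went from 5.38 to 38.4 TPM (median 26.8) to 49.0 to 100.9 TPM (median 75.6), a log2 difference of 1.68 (SE 0.18, limma adjusted p = 8.943e-10; on set means adjusted p = 0.00763). For both genes lithium libraries lay above all control libraries. RT1-CE16 (ENSRNOG00000059770) went from 1.32 to 7.06 TPM (median 5.31) to 9.15 to 27.2 TPM (median 13.1), a log2 difference of 1.52 (SE 0.16, limma adjusted p = 4.548e-10; on set means adjusted p = 0.00418).

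The most abundant class I row behaved otherwise between sets. RT1-CE16 (ENSRNOG00000047706) ran from 6.25 to 210.0 TPM with a median of 178.2 in controls and from 217.7 to 513.7 TPM with a median of 356.8 under lithium. The groups did not overlap, but the lowest lithium libraries lay just above the highest controls, and the step between control sets (8.62 TPM against 167 to 196 TPM) was wider than the step between treatments. The log2 difference was 1.87 (SE 0.41, limma adjusted p = 0.000308), and on set means the adjusted p was 0.162.

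The other class I members called higher, whose groups overlapped, were RT1-CE3 (log2 difference 1.19), RT1-N3 (0.95), RT1-CE9-ps1 (0.79), RT1-S2 (0.77), RT1-S3 (0.67), RT1-T24-4 (0.65), RT1-CE5 (0.63) and RT1-M3-1 (0.35), with limma adjusted p between 1.277e-07 and 0.00488. RT1-M3-1 belongs to the M3 group, which is known for presenting N-formylated peptides of bacteria and mitochondria, and its control range of 31.1 to 76.2 TPM covered its lithium range of 33.4 to 69.0 TPM. On set means the adjusted p was 0.0537 for RT1-CE5, 0.0572 for RT1-T24-4, 0.163 for RT1-M3-1 and 0.196 for RT1-S2. The call for RT1-S2 was lost without lithium libraries 1 to 6 (adjusted p = 0.0618).

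RT1-N2 was the only member called lower, with a log2 difference of -1.64 (SE 0.45, limma adjusted p = 0.00351). It ran from 0.60 to 18.4 TPM with a median of 8.28 in controls and from 0 to 16.5 TPM with a median of 0.03 under lithium, so the ranges overlapped. The adjusted p was 0.328 on set means and 0.0804 without lithium libraries 1 to 6, and its direction reversed between sets, with the highest set mean of all, 15.2 TPM, among the lithium sets. RT1-CE1, RT1-CE4, RT1-T24-1 and RT1-T24-3 had log2 differences between -0.49 and -0.23 and limma adjusted p between 0.284 and 0.664, and the log2 difference of RT1-T24-1 was -0.00 on set means.

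Class II members were low in CCD and varied more between libraries than class I. Among members with a mean of at least 5 TPM in control CCD, the SD of log2(TPM + 1) had a median of 1.24 for 4 class II members, 0.59 for 15 class I members and 0.291 for all genes. Summed class II TPM ran from 1.69 to 114.4 with a median of 36.3 in controls and from 20.7 to 466.7 with a median of 72.0 under lithium, with overlap. RT1-Ba and RT1-Bb, the alpha and beta chain genes of the B molecule, rose together. RT1-Ba ran from 0.21 to 15.8 TPM (median 4.23) in controls and from 4.13 to 59.7 TPM (median 9.57) under lithium, a log2 difference of 1.37 (SE 0.33, limma adjusted p = 0.00102; on set means adjusted p = 0.0332). RT1-Bb ran from 0.15 to 21.3 TPM (median 5.82) and from 5.68 to 83.5 TPM (median 15.3), a log2 difference of 1.46 (SE 0.36, limma adjusted p = 0.00111; on set means adjusted p = 0.0323). Both pairs of ranges overlapped.

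The chains of the D molecule gave weaker evidence. RT1-Da ran from 0.50 to 53.1 TPM (median 17.6) in controls and from 6.43 to 213.7 TPM (median 26.5) under lithium, with a log2 difference of 1.03 (SE 0.40, limma adjusted p = 0.0409). The adjusted p was 0.154 on set means and 0.177 without lithium libraries 12 to 15, which hold the highest value. RT1-Db1, the beta chain, had a log2 difference of 0.81 (SE 0.35, limma adjusted p = 0.0656). Beside these differences, 0 of 10 leukocyte markers tested were called (limma; 2 of 10 at an unadjusted p under 0.05), with a median log2 difference of 0.20, and 8 of 8 endothelial markers were lower (15.2% of all genes), their sum going from a median of 54.6 to 26.6 TPM. On set means 4 of 8 endothelial markers were lower, against 4.29% of all genes. In bulk tubules, fewer cells of a type and less RNA per cell cannot be told apart.

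**Figure D3:**
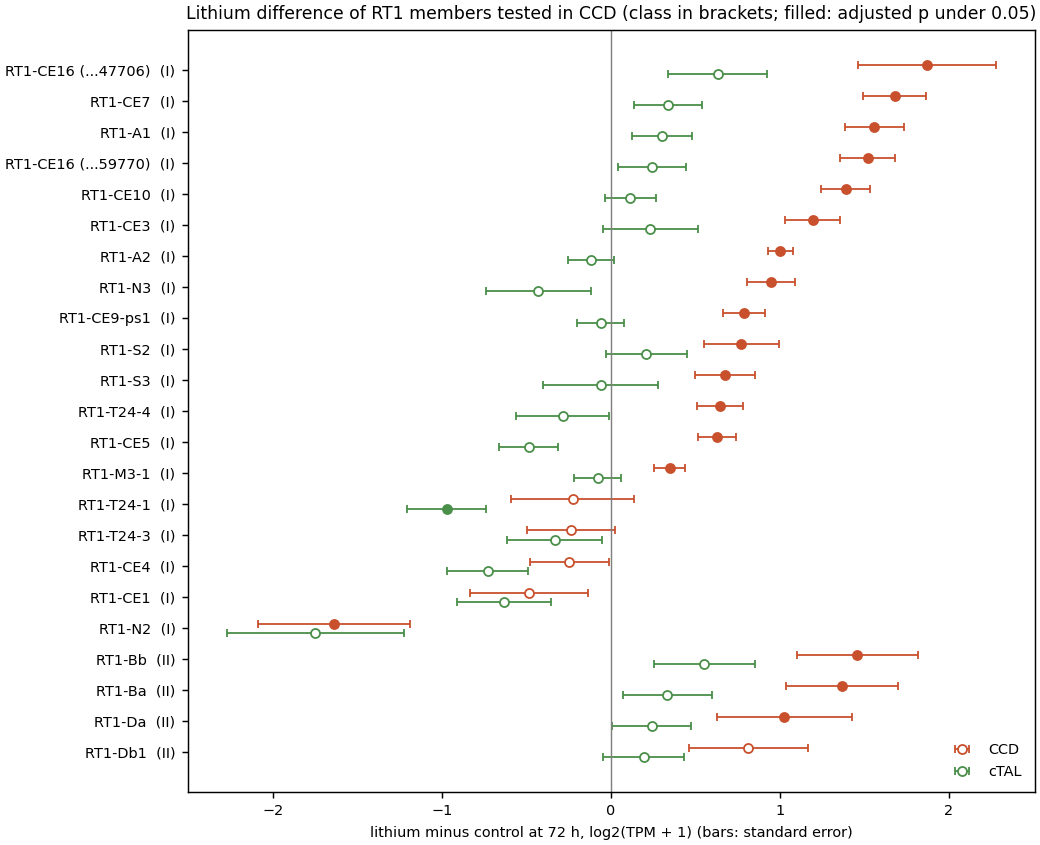
Lithium minus control at 72 h on the log2(TPM + 1) scale, with standard errors, for the 23 members tested in CCD (orange) and for the same members in cTAL (green); filled points passed an adjusted p of 0.05 and class is given in brackets. In CCD 18 points are filled, 17 of them to the right of 0; in cTAL only RT1-T24-1 is filled.

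In cTAL, hardly any RT1 member passed the test for lithium. Of 26 members tested by limma, 1 was called, RT1-T24-1, against 0.701% of all genes. It ran from 0.96 to 7.18 TPM (median 2.84) in controls and from 0.25 to 2.22 TPM (median 0.90) under lithium, a log2 difference of -0.97 (SE 0.23, limma adjusted p = 0.0446), and this call was lost on set means (adjusted p = 1.00). On set means limma called 0 of 26 members and 0.00% of all genes (on libraries, 6 of 26 members had an unadjusted p under 0.05). The cTAL groups overlapped for every RT1 member, and 0.0171% of all genes were lower without overlap.

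The genes that had risen in CCD overlapped widely between the cTAL groups. RT1-A2 ran from 68.0 to 143.4 TPM (median 98.9) in 12 control libraries and from 66.7 to 163.5 TPM (median 87.5) in 10 lithium libraries, and a two-sided permutation test gave p = 0.422. RT1-CE10 ran from 8.64 to 18.2 TPM (median 13.6) and from 9.03 to 20.6 TPM (median 15.1), with a permutation p of 0.446. Summed class I TPM had medians of 486.1 and 496.8 (ratio of means 1.04), and summed class II TPM medians of 611.4 and 853.3 (ratio of means 1.22).

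On libraries the lithium effect itself differed between segments for some class I members, and on set means for RT1-A2 alone. In the joint limma fit of the 4 groups of 72 h, the lithium effect in CCD minus that in cTAL was higher for 10 of 27 members and lower for 0, against 11.8% of all genes higher, 3.44% lower and 15.3% in either direction. The 10 were all class I (10 of 20), while 0 of 7 class II members passed, and the median was 0.79 for RT1 genes against 0.08 for all genes. RT1-A2 had a difference of effects of 1.12 (SE 0.14, limma adjusted p = 9.918e-09), RT1-CE10 1.28 (SE 0.22, adjusted p = 9.692e-06) and RT1-N3 1.38 (SE 0.31, adjusted p = 0.000738). On set means RT1-A2 was the only RT1 member to pass (limma adjusted p = 0.0157), against 3.90% of all genes higher and 4.40% in either direction; RT1-CE10 had an adjusted p of 0.0973 there. RT1-T24-4 and RT1-CE3 also lost their calls when a single set was left out (adjusted p up to 0.124 and 0.251).

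**Figure D4:**
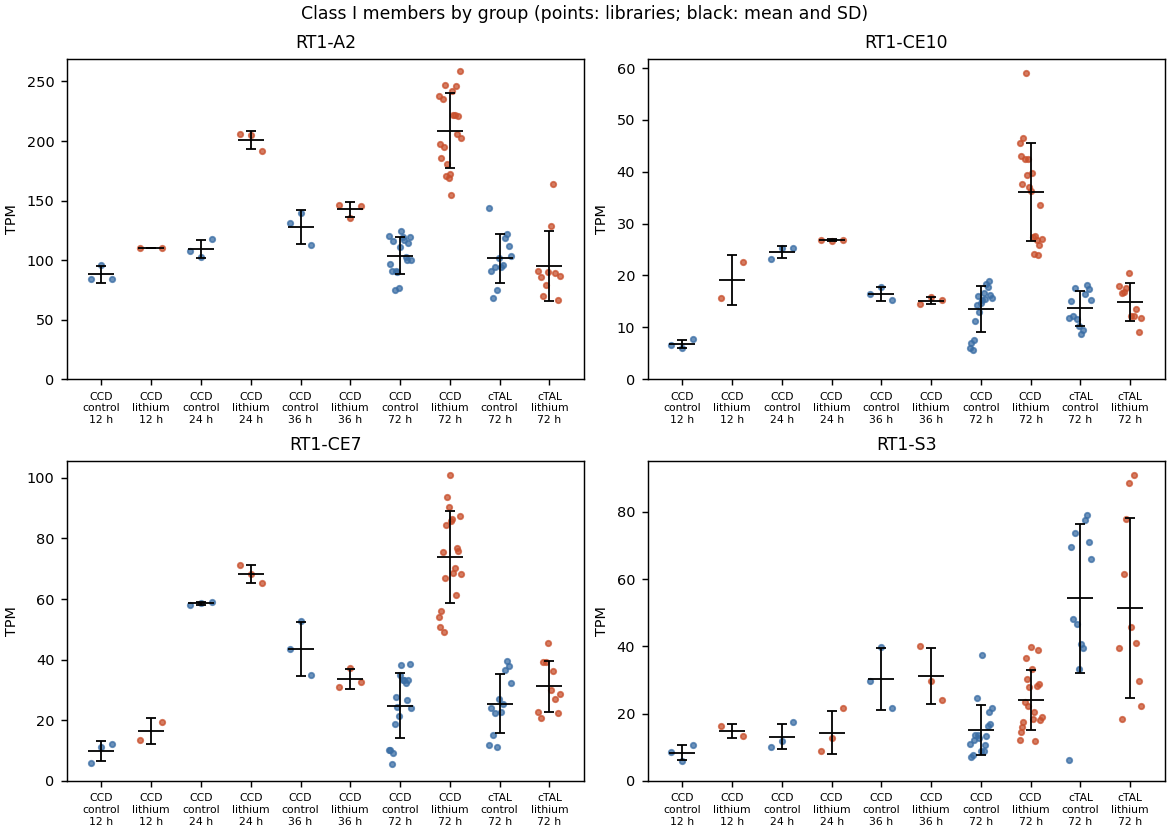
TPM of RT1-A2, RT1-CE10, RT1-CE7 and RT1-S3 in the 10 groups, with each library as a point (control blue, lithium orange) and the mean and SD in black. RT1-A2 lies at 154.3 to 259.1 TPM in CCD lithium at 72 h and at 191.8 to 205.95 TPM in CCD lithium at 24 h, above the controls of the same times, and at 66.7 to 163.5 TPM in lithium cTAL.

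The segments themselves differed mainly in class II. In the same joint limma fit, control CCD against control cTAL gave 3 members higher and 10 lower of 25 tested, against 49.8% of all genes higher, 18.6% lower and 68.4% in either direction. On set means 1 was higher and 9 were lower, against 38.8% and 14.2% of all genes. All 6 class II members tested were lower in CCD, with a median log2 difference of -4.07, whereas class I gave 3 higher and 4 lower of 19 with a median of 0.04. Other scalings gave 1 higher and 12 lower. Of 11925 genes, 3614 were then higher and 3492 lower with median of ratios, and 4074 and 3319 with quantile normalization. The median of all genes moved from 0.28 to 0.02 and 0.07 in that order. A positive difference under about 0.3 is therefore within the scaling.

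RT1-Da, the alpha chain of the D molecule, ran from 0.50 to 53.1 TPM (median 17.6) in control CCD and from 156.6 to 492.7 TPM (median 278.2) in control cTAL. The segments did not overlap, and the log2 difference was -4.20 (SE 0.39, limma adjusted p = 1.146e-14). RT1-Ba, RT1-Bb and RT1-Db1 did not overlap either, with log2 differences of -4.22, -4.20 and -3.94; values without overlap were lower for 4 members and 5.49% of all genes, and higher for 0 members and 9.06% of all genes. RT1-Db2, a second D beta chain gene, and RT1-DOa, the alpha chain of the DO molecule that restrains peptide loading, had log2 differences of -2.64 and -1.83 and overlapped. The mean class II sum was 15.4 times as high in control cTAL as in control CCD, and the class I ratio was 0.955.

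A few class I members followed the same direction as class II. RT1-T24-3 had a median of 2.86 TPM in control CCD and 20.7 TPM in control cTAL, a log2 difference of -2.42 (SE 0.29, limma adjusted p = 4.209e-11). RT1-S3 had medians of 13.4 and 57.1 TPM, a log2 difference of -1.71 (SE 0.25, adjusted p = 2.425e-08). RT1-T24-4 (-1.04) and RT1-N3 (-0.49) were also lower in CCD, while RT1-M3-1 (0.60), RT1-CE1 (0.90) and RT1-CE4 (0.55) were higher. RT1-M3-1 kept its call on set means (limma adjusted p = 0.0143), and RT1-CE1 and RT1-CE4, which step between control sets, did not (0.176 and 0.281).

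Leukocyte RNA moved with class II between segments, and with RT1-Da among libraries. No other class II member was set against the leukocyte markers among libraries. Of the leukocyte markers, 13 of 13 tested were lower in control CCD than in control cTAL, the marker sum running from 16.9 to 308 TPM in CCD and from 769.6 to 2613 TPM in cTAL, and 9 of 9 endothelial and 7 of 7 proximal tubule markers were lower as well (18.6% of all genes). On set means all 13 leukocyte and 9 endothelial but 3 of 7 proximal tubule markers were lower, against 14.2% of all genes. Summed T-cell markers ran from 0 to 6.16 TPM in control CCD and from 8.12 to 44.1 TPM in control cTAL. Ciita, which encodes the master activator of class II transcription, was at most 0.43 TPM in control CCD (median 0) and had a median of 2.32 TPM in control cTAL.

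Within each group of 72 h, RT1-Da was set against the mean log2(TPM + 1) of the leukocyte markers, as 4 of 16 relations computed for 4 genes in 4 groups, with permutation p-values adjusted over the 16. In control CCD (17 libraries) Pearson's r was 0.90 and Spearman's rho 0.949 (adjusted p of 0.00016 each), and r was 0.883 without the 2 libraries farthest from the median and 0.902 within sets. In lithium CCD (19 libraries) r was 0.76 and rho 0.758 (adjusted p of 0.000608 and 0.00224), with 0.602 without the 2 farthest and 0.606 within sets. In control cTAL (12 libraries) r was 0.828 and rho 0.762 (0.00264 and 0.0109), and in lithium cTAL (10 libraries) r was 0.926 and rho 0.927 (0.000587 and 0.00224). Without the 2 farthest libraries r was 0.873 and 0.922 in cTAL, and within sets 0.623 and 0.853. The part of leukocyte RNA in the class II difference between treatments was not tested.

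For class I members the relation varied by gene and group. For RT1-A2 Pearson's r was -0.04 in control CCD, -0.09 in lithium CCD, 0.517 in control cTAL and 0.571 in lithium cTAL, with permutation p-values adjusted over 16 relations of 0.867, 0.75, 0.128 and 0.128; Spearman's rho was -0.08, -0.14, 0.406 and 0.661, with adjusted p of 0.752, 0.612, 0.257 and 0.0712. Without the 2 farthest libraries r was -0.00, -0.17, 0.388 and 0.549, and within sets it was 0.0743, -0.23, 0.488 and 0.872 in the same order of groups, so in lithium cTAL it was larger within sets. RT1-S3 gave r of 0.508, 0.237, 0.47 and 0.881 (adjusted permutation p of 0.0652, 0.374, 0.14 and 0.00264) and rho of 0.485, 0.27, 0.713 and 0.867 (0.074, 0.302, 0.0208 and 0.00605). Without the 2 farthest libraries r of RT1-S3 was 0.379, 0.12, 0.546 and 0.944, and within sets 0.54, 0.388, 0.167 and 0.736. RT1-T24-3 gave r of 0.301 in control CCD (rho 0.321), 0.751 in lithium CCD (rho 0.719), 0.866 in control cTAL (rho 0.762) and 0.973 in lithium cTAL (rho 0.915), with permutation p of r adjusted to 0.298, 0.000608, 0.00264 and 0.0004 and of rho to 0.258, 0.00259, 0.0109 and 0.00228. Without the 2 farthest libraries r of RT1-T24-3 was 0.178, 0.761, 0.951 and 0.952, and within sets 0.225, 0.532, 0.744 and 0.932.

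**Figure D5:**
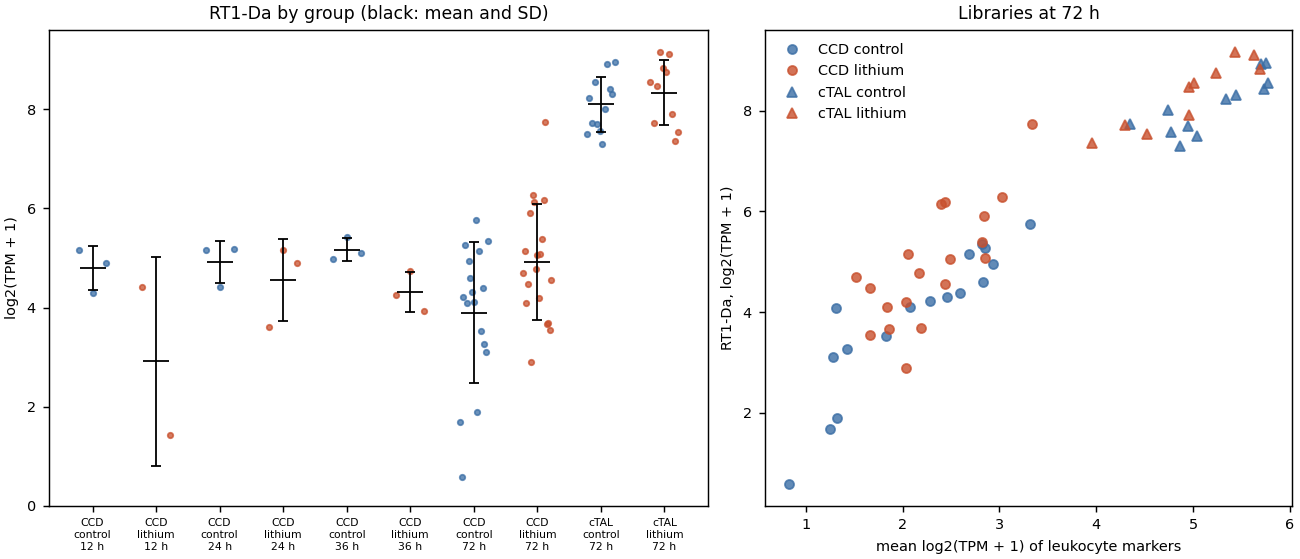
Left, log2(TPM + 1) of RT1-Da in the 10 groups with the mean and SD in black; right, RT1-Da against the mean log2(TPM + 1) of leukocyte markers in libraries of 72 h (circles CCD, triangles cTAL, blue control, orange lithium). The cTAL libraries lie at 156.6 TPM or more, and within each group RT1-Da is higher where the markers are higher (r from 0.76 to 0.926).

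At the early times, the class I pattern changed from one pair of groups to the next. RT1-CE16 (ENSRNOG00000047706) was at 7.67, 10.3 and 10.4 TPM in the 12 h controls, at 348.5 to 467.7 TPM in the 24 h controls and at 178.1 to 208.2 TPM in the 36 h controls. Libraries of 1 early group lay close together in this gene, each group at 1 level. A step and a lithium effect therefore cannot be told apart in any single early comparison.

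At 12 h, 5 class I members were higher and 3 class II members lower of 24 tested in the joint limma fit of the 6 early groups, against 7.96% of all genes higher, 3.78% lower and 11.7% in either direction. RT1-CE10 was at 6.06, 6.64 and 7.71 TPM in controls and at 15.7 and 22.5 TPM under lithium, a log2 difference of 1.35 (SE 0.14, limma adjusted p = 1.231e-05). RT1-A1 was at 24.1, 26.6 and 27.1 TPM and at 41.4 and 45.1 TPM, a log2 difference of 0.71 (SE 0.11, adjusted p = 0.000282). Neither gene overlapped between the groups; 9 members were higher and 4 lower without overlap, against 23.2% and 11.3% of all genes. RT1-CE7 (0.72), RT1-CE16 (ENSRNOG00000047706) (0.47) and RT1-A2 (0.32) completed the 5, the last with values of 83.9, 84.1 and 96.0 TPM against 109.9 and 110.3 TPM.

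The 3 class II members lower at 12 h were RT1-Ba (-1.43), RT1-Bb (-1.51) and RT1-Db1 (-1.61). All 3 calls were lost without the second lithium library, where RT1-Da was at 1.69 TPM and RT1-Ba at 0.49 TPM. That fit called 3 members in all, against 560 genes higher and 514 lower of 12533. Leaving out the first control library left 4 members, against 681 genes higher and 383 lower of 11852. The mean log2(TPM + 1) of leukocyte markers ran from 1.99 to 3.05 in these controls and from 1.46 to 1.72 in the lithium libraries, and its part in the class II difference was not tested. A fit of the 2 groups alone called 2 members, both higher, against 252 genes higher and 137 lower of 12016. Quantile normalization called 3 higher and 3 lower, against 780 and 752 of those genes.

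At 24 h, 9 members were higher and 1 lower of 25, all class I, against 19.9% of all genes higher, 5.77% lower and 25.7% in either direction. RT1-A2 was at 102.9, 107.4 and 117.7 TPM in controls and at 191.8, 204.9 and 205.95 TPM under lithium, without overlap and with a log2 difference of 0.87 (SE 0.08, limma adjusted p = 9.687e-07). The exact permutation test of 3 against 3 libraries gave p = 0.1, the smallest that it can give. RT1-CE1 was at 1.26 to 2.46 TPM in controls and at 17.4 to 24.2 TPM under lithium (log2 difference 2.91), and RT1-CE4 at 4.62 to 5.46 TPM and 35.5 to 38.7 TPM (2.62). Both genes also stepped between control sets at 72 h. Without overlap, 12 members were higher and 2 lower at 24 h, against 33.9% and 10.4% of all genes. RT1-T24-1 (2.51), RT1-CE6 (2.05), RT1-N3 (1.87), RT1-CE5 (1.09), RT1-CE3 (0.80) and RT1-M3-1 (0.49) were the other higher members, and RT1-CE16 (ENSRNOG00000047706) was lower (-0.62).

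At 36 h, 6 class I members were higher and 6 lower of 24, against 25.5% of all genes higher, 9.28% lower and 34.8% in either direction. Quantile normalization called 5 higher and 9 lower, against 2027 and 2421 of 12069 genes. RT1-T24-1 was at 2.01, 2.08 and 2.38 TPM in controls and at 52.5, 58.4 and 61.9 TPM under lithium, a log2 difference of 4.21 (SE 0.15, limma adjusted p = 9.541e-12). RT1-N2 was at 0.82 to 3.01 TPM and at 17.7 to 21.7 TPM (2.84), and RT1-CE5 at 34.9 to 38.0 TPM and at 106.3 to 110.6 TPM (1.55). None of the 3 overlapped between the groups; in all, 6 members were higher and 9 lower without overlap, against 34.6% and 14.4% of all genes. RT1-N3 (1.78), RT1-CE9-ps1 (0.68) and RT1-CE4 (0.41) were also higher.

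Of the 6 genes that fell at 36 h, RT1-A1, RT1-CE3 and both RT1-CE16 rows were called higher at 72 h. RT1-CE16 (ENSRNOG00000047706) was at 178.1 to 208.2 TPM in controls and at 19.7 to 21.4 TPM under lithium, a log2 difference of -3.21 (SE 0.11, limma adjusted p = 9.541e-12). RT1-A1 was at 70.8 to 90.5 TPM and at 35.6 to 36.8 TPM (-1.15). RT1-CE3 (-1.89), RT1-CE16 (ENSRNOG00000059770) (-1.80), RT1-CE1 (-1.23) and RT1-CE6 (-0.60) were lower too, while RT1-A2, at 112.3 to 139.6 TPM and 135.5 to 146.3 TPM, was not called (log2 difference 0.16, adjusted p = 0.155). Summed class I TPM had lithium to control ratios of 1.32 at 12 h, 1.11 at 24 h and 0.904 at 36 h, against 2.05 at 72 h. The median difference of all genes was 0.06, 0.13 and 0.13 at 12, 24 and 36 h, and between -0.05 and 0.01 after median-of-ratios scaling or quantile normalization.

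Genes that serve class I presentation rose with class I in CCD at 72 h. Of 17 listed class I partners 15 were tested, and 12 were higher and 0 lower (limma, adjusted p under 0.05; 22.0% of all genes were higher), 6 of them without overlap (1.71% of all genes), with a median log2 difference of 0.90. On set means 8 of 15 were higher, against 10.8% of all genes. B2m, the light chain of every class I molecule, ran from 79.1 to 156.0 TPM (median 109.3) in controls and from 208.0 to 420.4 TPM (median 321.2) under lithium, a log2 difference of 1.56 (SE 0.09, adjusted p = 8.866e-18; on set means 7.689e-05). Tap1, a subunit of the peptide transporter, ran from 3.50 to 12.3 TPM and from 16.1 to 32.6 TPM (log2 difference 1.54). The ranges of both genes did not overlap. The immunoproteasome subunit genes Psmb8 (1.93), Psmb9 (1.66) and Psmb10 (1.68) and the proteasome activator gene Psme2 (0.90) were also higher, while Nlrc5, the class I transactivator, was below the filter with medians of 0.08 and 0.39 TPM.

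Interferon-stimulated genes were higher for 10 of 15 tested and lower for 0 in CCD at 72 h (22.0% of all genes were higher), with a median of 1.02, and on set means for 6 of 15 (10.8%). They were led by the chemokine gene Cxcl10 (3.29), Ubd (2.84), Cxcl9 (1.81), Isg15 (1.64) and Oas1a (1.45). Of 6 class II partners tested 2 were higher, Ifi30, a lysosomal thiol reductase gene (0.45), and Cd74, the invariant chain of class II (1.21, limma adjusted p = 0.0112; 0.0583 on set means). Ciita stayed at or under 0.48 TPM in every CCD library of 72 h. In cTAL limma called 0 of 15 class I partners, 0 of 7 class II partners and 0 of 14 interferon-stimulated genes (2, 1 and 1 at an unadjusted p under 0.05). The difference of lithium effects between segments was higher for 9 of 15 class I partners, among them B2m (1.48) and Tap1 (1.43), and for 5 of 16 interferon-stimulated genes, against 11.8% of all genes. On set means it was higher for 6 of 15 and 2 of 16, against 3.90% of all genes, and B2m and Tap1 kept their calls (limma adjusted p of 0.011 and 0.00344).

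B2m was higher at every early time too, by log2 differences of 0.74 at 12 h, 1.09 at 24 h and 0.52 at 36 h (limma adjusted p of 4.43e-05, 3.57e-08 and 7.87e-05), and Tap1 by 0.89, 1.02 and 0.87. RT1-A2 also had positive differences at each early time but was not called at 36 h. Of 15 class I partners tested, 7 were higher and 2 lower at 12 h (7.96% and 3.78% of all genes). At 24 h 6 were higher and 1 lower (19.9% and 5.77%), and at 36 h 6 and 2 (25.5% and 9.28%). A step and a lithium effect cannot be told apart in these early comparisons either. The interferon-stimulated list moved less evenly. At 12 h, 3 of 13 tested were higher and 0 lower, against 7.96% and 3.78% of all genes. At 24 h, 1 of 13 was higher and 5 were lower (Oas1a by -2.41 and Isg15 by -1.10), against 19.9% and 5.77%. At 36 h, 6 of 16 were higher and 0 lower, against 25.5% and 9.28%. Between segments, Cd74 was lower in control CCD by 4.50 on the log2 scale and Ctss, a protease that trims the invariant chain, by 3.33, next to the class II members, and B2m was lower by 0.58.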

How the data were processed

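RNA of dissected rat tubule segments was sequenced as unstranded SMARTer cDNA, per the labels' protocols. The authors aligned reads to Rnor_6.0 with STAR 2.5.2b and estimated abundances with RSEM 1.2.31, per the submitters' processing notes, and deposited TPM per gene. TPM keeps no depth, so precision rests on the number of libraries. Samples were grouped by their labels. TPM was tested as log2(TPM + 1) with limma 3.58.1 in R 4.3.3, and differences on this scale understate changes of low genes. Genes needed at least 1 TPM in at least as many libraries as the smaller group has. P-values were adjusted by Benjamini-Hochberg over all genes tested, with a threshold of 0.05. Early groups shared 1 fit, as did the groups of 72 h for segment and difference of effects. Permutation tests were two-sided. Named with full values were called members whose higher group averaged 5 TPM or more, members averaging 20 TPM or more in a group, the 6 called members of widest range between sets, and up to 5 partner genes of smallest p per list; RT1-S2, RT1-CE6 and other low members are given by their difference. The scripts were tested on simulated data: of genes changed by 1 on the log2 scale, 198 of 200 were recovered in CCD at 72 h and 181 of 200 in cTAL. There 12 and 20 unchanged genes were called as well. The changed genes averaged at least 5 TPM and the simulated libraries were independent, so recovery where libraries share a set was not measured. No libraries were identical. Members and lists were chosen with earlier results of these data known. Alternatives were other pseudocounts, filters, scalings, replicate blocks, library sets as units, and leaving out libraries or sets.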

Additional observations from a re-analysis of the deposited data

Results flagged for a closer look

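For 10 of 27 RT1 members, all class I, the lithium effect at 72 h differed between the CCD and the cTAL, against 15.3% of all genes. The test was of the difference itself, in limma with Benjamini-Hochberg adjustment. The CCD effect minus the cTAL effect, on the log2(TPM + 1) scale, was 1.12 for RT1-A2, 1.275 for RT1-CE10, 1.115 for RT1-CE5, 1.277 for RT1-CE16 (ENSRNOG00000059770), 1.257 for RT1-A1 and 1.341 for RT1-CE7. It was 0.8506 for RT1-CE9-ps1, 1.379 for RT1-N3, 0.933 for RT1-T24-4 and 0.9607 for RT1-CE3. With set means as units, RT1-A2 alone of the 27 passed, against 4.40% of all genes, so the count was near that share.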

How the results depend on the processing

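The count of RT1 members called in CCD at 72 h was 18 and fell to 11 on means of library sets; leaving out a set gave 16 to 20. In cTAL the count of 1 became 0 with a pseudocount of 0.1, with no filter, with the replicate block, on set means and with sets as a random effect, and 0 to 4 without single sets. At 12 h the count of 8 became 2 in a fit of the 2 groups alone and 3 to 8 without single libraries. The difference of effects went from 10 to 1 on set means and to 8 to 11 without single sets. Members differing between sets numbered 2 of 23 under the rule written first, against 244 of 11644 genes. With no filter that rule called 5 of 37 members, against 4885 of 22756 genes, which is a larger share. Under the rule added after the data were seen they numbered 17 of 23, against 3753 of 11644 genes. With the added rule they numbered 17 with median-of-ratios scaling and 16 with quantile normalization, against 3630 and 3903 of those genes. In controls only they numbered 14 of 16, against 2062 of 9781 genes, and in lithium only 13 of 20, against 2060 of 10082. At a spread ratio of 2 they numbered 19, of which 2 were class II, against 5797 of 11644 genes. The first rule left control CCD in 1 set, so every fit on sets used the added rule. Without single libraries or sets, counts ran from 9 to 11 at 24 h, 11 to 13 at 36 h and 12 to 14 between segments. In the other settings they ran from 9 to 12, from 11 to 14 and from 10 to 13 in the same order. All stayed within 1.5 times of 10, 12 and 13, the counts of the main fits, which called 25.7%, 34.8% and 68.4% of all genes. No difference that had been called changed direction in the alternatives run; members that were not called were not followed through them. On set means 18 of 39 single results lost their call.

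Correlations of same-numbered control and lithium libraries ran from -0.224 to 0.382. They exceeded 0.1 for 6 of 17 pairs in CCD at 72 h and 4 of 10 in cTAL. At 12, 24 and 36 h they did so for 1 of 2, 1 of 3 and 0 of 3 pairs. Libraries of unlike numbers were not compared, so whether replicate numbers pair the samples was not tested. With the replicate block, 18 of 23 members were called in CCD at 72 h, against 2398 genes higher and 1832 lower of 11644. At 12 h 6 of 24 were called (807 and 396 of 12016 genes) and at 24 h 10 of 25 (2316 and 665 of 11909). At 36 h 12 of 24 were called (3055 and 1071 of 12069 genes) and between segments 12 of 25 (5858 and 2237 of 11925). A block was not fitted for the difference of effects. Depth is unknown, so values near 0 TPM carry no interval.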
